A study of Mus musculus with 27 samples.

Results

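Microglia, the macrophages of the brain, were set against macrophages of the small intestine in 7 of the 27 arrays of the series, chosen by their sample labels: 5 arrays of naive microglia and 2 of intestinal macrophages. The series as a whole follows which cells refill a brain emptied of microglia, and the intestinal cells stand in it as a reference macrophage of another organ. Naive microglia were sorted as CD11b+CX3CR1hi cells from the brain, and the sample labels allow either completely naive mice or Cx3cr1CreER/+ controls given tamoxifen (TAM), whereas the legend of the study's array figure names the TAM-treated Cx3cr1CreER/+ mice. Intestinal macrophages came from untreated mice: lamina propria cells of the small intestine were enriched with CD11b beads and then sorted as CX3CR1hiCD64+MHCII+ cells. All mice were C57BL/6, experiments began at 6 to 12 weeks of age, and each sample is a pool of 2 to 5 mice. The brain was digested with collagenase D and DNase or a neural dissociation kit and the intestine with DNase and Liberase, so that tissue and digestion cannot be told apart. Of the naive arrays, 2 were run in batch 1 and 3 in batch 2, and both intestinal arrays were run in batch 2. The 5 naive arrays hold 3 biological and 2 technical replicates, as do the 5 arrays of Ly6Chi monocytes, and the labels do not say which array is which, so that SDs and p-values here may be too small. Beside these arrays, red pulp macrophages of the spleen (RPM, 2 arrays) and Ly6Chi monocytes of the bone marrow (5 arrays) give the level of a gene in another tissue macrophage and in the cells from which intestinal macrophages are renewed.

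Microglia settle in the embryonic brain and renew themselves there, behind the blood-brain barrier. They survey the tissue with motile processes guided by nucleotide and fractalkine receptors, and their identity depends on transforming growth factor beta (TGF-beta) and on the transcription factors PU.1 and SALL1. Macrophages of the intestinal lamina propria are for the most part replaced by Ly6Chi monocytes throughout life, display MHC class II to T cells, take up dying epithelial cells and bacteria, and are known for interleukin-10 production in a tissue full of plasma cells and microbial products.

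The values are log2 signals of whole-transcript Affymetrix arrays of the mouse (Gene 2.1 ST), on which a step of 1 is a 2-fold difference. A difference is always given as naive microglia minus intestinal macrophages, from a linear model over all 27 arrays with a batch term (limma), with its standard error (SE). A gene was called higher or lower where the Benjamini-Hochberg adjusted p over 32245 transcripts was under 0.05 and the change above 2-fold. Means of arrays are given ± SD, and a single value ± SE beside a gene is its log2 difference. Array medians lay between 5.10 and 5.17, and many transcripts near that level or below it may not have been expressed.

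Arrays of the same label were closer to each other than to those of the other label. The naive arrays correlated with each other at 0.9677 to 0.9870 (Pearson r over transcripts), the intestinal arrays with each other at 0.9769 and naive with intestinal arrays at 0.8501 to 0.8731. Naive replicate 3 stood somewhat apart, with correlations of 0.9677 to 0.9766 with the other naive arrays, against 0.9809 to 0.9870 among those. Without it, 1881 transcripts were higher and 2250 lower in naive microglia, beside 1919 and 2287 with it. None of 7 neuron and 8 oligodendrocyte markers passed, and the neuron markers averaged 4.63 to 4.80 in naive microglia and 4.61 and 4.55 in intestinal macrophages. Lists of other blood cells did differ. The 9 plasma cell markers averaged 6.37 to 6.57 in naive microglia, against 9.87 and 10.36 in intestinal macrophages, and the 8 B cell markers 5.38 to 5.53 in naive microglia, against 7.70 and 8.02 in intestinal macrophages. The 8 T cell markers averaged 4.71 to 4.94 in naive microglia, against 5.80 and 6.05 in intestinal macrophages, and 3 of them were called lower in naive microglia: *Cd28* (-3.10 ± 0.23), *Cd2* (-1.86 ± 0.30) and *Cd3g* (-1.01 ± 0.20, not called without intestinal replicate 1). *Cd3e* averaged 4.51 ± 0.19 in naive microglia and 4.93 ± 0.04 in intestinal macrophages, and did not pass. In bulk samples, fewer cells of a type and less RNA per cell cannot be told apart.

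The intestinal arrays also held RNA that macrophages are not known to make. Transcripts of antibody segments, such as the kappa joining segment *Igkj1* (4.73, 4.59, 4.04, 3.98 and 4.93 in naive microglia, against 12.28 and 12.27 in intestinal macrophages) and *Jchain*, the joining chain of secreted IgA (4.92, 4.54, 4.60, 4.54 and 4.45 in naive microglia, against 13.13 and 13.14 in intestinal macrophages), were high in both intestinal arrays. Of the antibody segments, 2 lay over 4-fold apart between these arrays, both higher in replicate 2. All 20 antibody genes with a transcript of their own were called lower in naive microglia, with a median log2 difference of -6.95, and they make up 11 of the 15 largest falls of all. The exception in size was *Ighm*, the constant region of IgM, which was strong in both populations, with 13.09, 12.85, 13.26, 12.86 and 12.82 in naive microglia, against 14.01 and 14.13 in intestinal macrophages (-1.09 ± 0.22, not called after quantile normalization); the other 19 were over 16-fold lower. The group means of all 20 had a median of 4.29 in naive microglia, 5.30 in RPM, 8.61 in Ly6Chi monocytes and 11.7 in intestinal macrophages. Antibody genes form a large family of similar segments, so that the value of a single segment is uncertain.

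Replicate 1 of the intestinal macrophages stood apart in gene products of the gut lining, which were picked out after their values were seen. *Tff2*, a trefoil peptide of mucous glands, read 4.84, 5.31, 4.95, 4.94 and 5.34 in naive microglia, against 12.96 and 4.71 in intestinal macrophages. *Muc6*, a gland mucin, read 5.37, 5.13, 5.42, 4.86 and 5.15 in naive microglia, against 11.24 and 4.86 in intestinal macrophages. The gastric peptide *Gkn3*, the secretory cell protein *Agr2*, the Paneth cell defensins *Defa21*, *Defa22* and *Defa24* and *Ang4* were likewise more than 4-fold higher in replicate 1 than in replicate 2. In all, 18 genes were over 4-fold higher in replicate 1 and 5 over 4-fold higher in replicate 2. Of the 18, 14 were called lower in naive microglia and 4 of these stayed so without replicate 1: *Tff2* went to a log2 difference of 0.37 and *Muc6* to 0.29, while *Defa24* kept -3.42. Of 12 general epithelial markers, 4 were called lower in naive microglia and 2 without replicate 1, with a list average of 4.79 to 4.83 in naive microglia, against 5.77 and 5.53 in intestinal macrophages. What part such RNA has in the differences below was not tested.

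**Figure D1:**
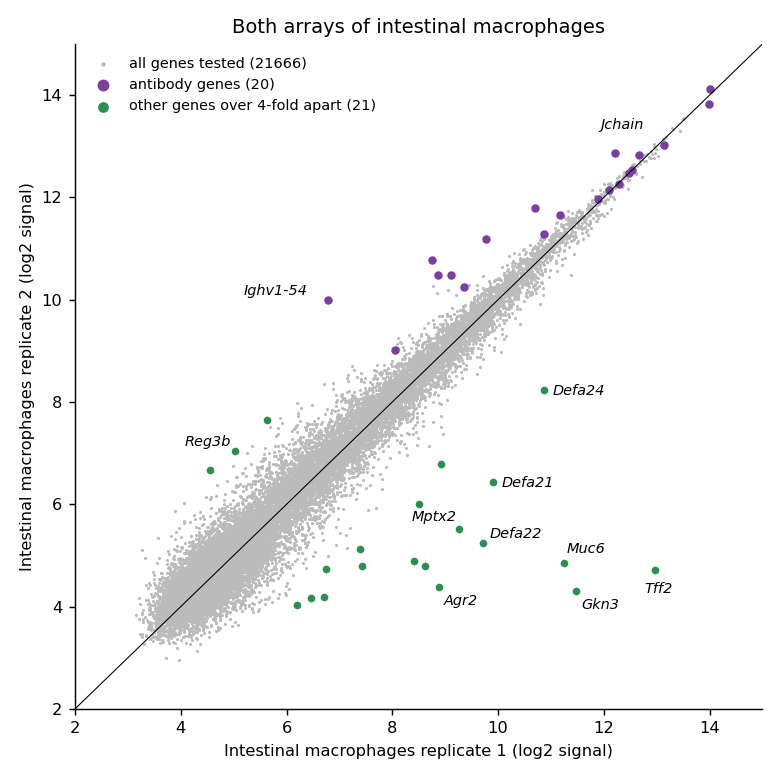
Log2 signal of every gene in replicate 1 (horizontal axis) and replicate 2 (vertical axis) of the intestinal macrophages, with 20 antibody genes in purple and the 21 other genes that lie over 4-fold apart in green; the line marks equal signals. Tff2, Gkn3 and Muc6 lie above 11 in replicate 1 and below 5 in replicate 2, whereas most antibody genes lie near the line and 2 lie over 4-fold apart, higher in replicate 2.

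Across the array, 1919 transcripts were higher (5.95% of those tested) and 2287 lower (7.09%) in naive microglia than in intestinal macrophages. In genes these were 1381 higher (6.37%) and 1662 lower (7.67%) of 21666. The large differences lay mostly on the side of the intestine: 39 genes were more than 16-fold higher and 159 more than 16-fold lower in naive microglia, or 140 lower without the antibody genes, and 268 were higher and 467 lower by 4 to 16-fold. In 588 of the genes higher in naive microglia the intestinal mean lay below 6, and in 907 of the genes lower there the naive mean did, so that their folds rest on a level near the array median. Outside the antibody segments the largest falls were those of *Jchain*, of *Apol7c*, an apolipoprotein L (4.37, 5.41, 5.23, 5.16 and 4.92 in naive microglia, against 12.74 and 12.74 in intestinal macrophages), of *Il1r2* and of *Mmp13*. Of the 4206 transcripts called, 4160 had arrays that do not overlap between the groups, as did 12544 (38.9%) of all 32245 tested.

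**Figure D2:**
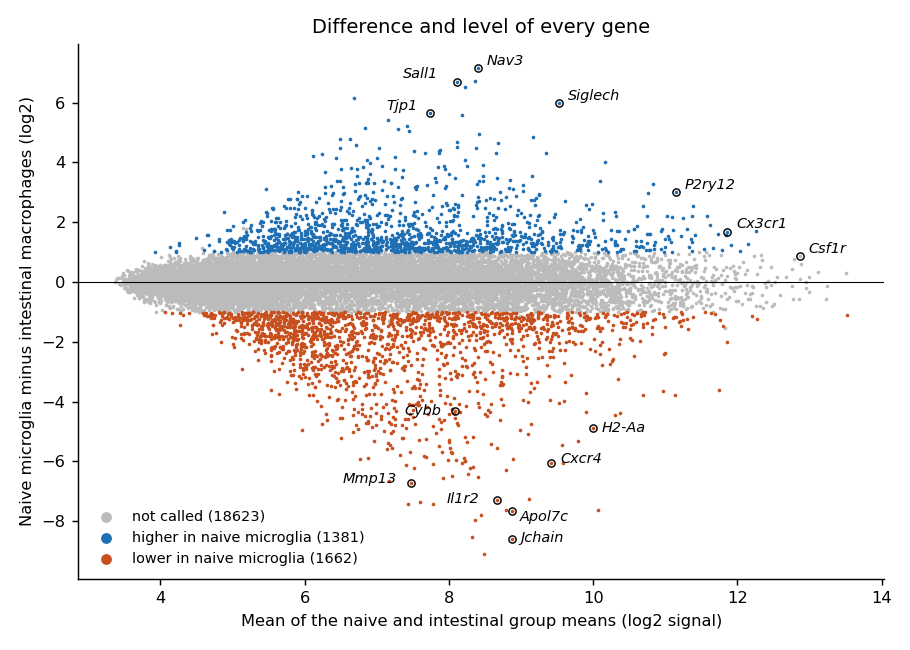
Each of 21666 genes by its level, the mean of the naive and intestinal group means (log2 signal, horizontal axis), and by its difference, naive microglia minus intestinal macrophages (log2, vertical axis); blue marks the 1381 genes called higher and orange the 1662 called lower in naive microglia. Downward differences reach further than upward ones, from -9.11 to 7.15.

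Genes that mark homeostatic microglia, the resting state of the healthy brain, were higher almost without exception. Of 28 such genes measured, 27 were called higher and none lower in naive microglia, with a median log2 difference of 3.13 beside 0.03 over all genes. *Sall1*, the zinc finger factor that holds microglial identity, read 11.41, 11.17, 11.50, 11.36 and 11.60 in naive microglia, against 4.56 and 5.06 in intestinal macrophages. The log2 difference was 6.68 ± 0.29 (SE), with an adjusted p of 5.50e-15 in limma, and no intestinal array came near a naive array. *Siglech*, a sialic acid-binding lectin, read 12.51, 12.37, 12.50, 12.42 and 12.71 in naive microglia, against 6.86 and 6.27 in intestinal macrophages, and *Tmem119*, a surface protein used to tell microglia from other macrophages, 10.86, 10.66, 10.80, 10.42 and 10.53 in naive microglia, against 6.07 and 6.10 in intestinal macrophages. For both, every naive array lay far above every intestinal array and the naive arrays differed little among themselves.

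Among these genes, the size of the difference ranged widely. Beside *Sall1* and *Siglech*, the largest were those of *Nav3*, a neuron navigator protein that binds microtubules (7.15 ± 0.26), *Upk1b*, a tetraspanin first known from bladder epithelium (6.73 ± 0.33), and *Slc2a5*, the fructose transporter GLUT5 (6.53 ± 0.28, where the intestinal arrays read 4.25 and 5.78). *Sparc*, a matricellular protein (4.68 ± 0.26), *Rtn4rl1*, a relative of the Nogo receptor (4.59 ± 0.30), *Gpr84*, a receptor for medium-chain fatty acids (4.33 ± 0.25), *Golm1* (4.03 ± 0.16), *Crybb1* (3.88 ± 0.18) and *Adgrg1*, an adhesion receptor (3.78 ± 0.21), followed. In none of these 9 genes did an intestinal array reach a naive array. The same held for 4160 of the 4206 transcripts called and for 38.9% of all tested.

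Other microglia genes were well expressed in the intestine too. *P2ry12*, the ADP receptor that steers microglial processes, read 12.43, 12.47, 12.68, 12.67 and 12.75 in naive microglia, against 9.50 and 9.91 in intestinal macrophages, a difference of 2.996 ± 0.16 with an adjusted p of 3.36e-13. *Trem2*, a receptor for lipids that signals through TYROBP, read 12.17, 12.21, 12.41, 12.11 and 12.24 in naive microglia, against 9.02 and 9.55 in intestinal macrophages. *Fcrls*, an Fc receptor-like scavenger protein, differed by 3.37 ± 0.21, *P2ry13* by 3.27 ± 0.20 and *Olfml3* by 2.89 ± 0.22, with intestinal means of 8.40 ± 0.07, 9.25 ± 0.27 and 7.53 ± 0.26. The fractalkine receptor *Cx3cr1*, on which both populations were sorted, read 12.77, 12.73, 12.72, 12.71 and 12.60 in naive microglia, against 10.82 and 11.20 in intestinal macrophages, a smaller difference of 1.67 ± 0.16. The study's legend names Cx3cr1CreER/+ mice for the naive microglia, a genotype at this same gene, and its effect on the signal was not tested. The exception among the 28 was *P2ry6*, the UDP receptor of microglial phagocytosis, with 11.86, 11.76, 12.01, 12.04 and 11.81 in naive microglia, against 11.43 and 11.57 in intestinal macrophages. Its difference was 0.45 (95% interval 0.18 to 0.73), under the 2-fold limit, although its arrays did not overlap.

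Set beside other macrophages, the same genes did not keep 1 order. In RPM minus intestinal macrophages, 2519 genes were called in either direction (11.6%), and in Ly6Chi monocytes minus intestinal macrophages 2646 (12.2%). *Fcrls* averaged 4.72 ± 0.31 in RPM and 4.98 ± 0.18 in Ly6Chi monocytes, both below its 8.40 ± 0.07 in intestinal macrophages (log2 differences of -3.68 and -3.42, both called). *Trem2* was lower in RPM (5.88 ± 0.75) than in intestinal macrophages (9.29 ± 0.37), with a difference of -3.41 and an adjusted p of 1.29e-10 in limma. *P2ry13* was higher in RPM (11.19 ± 0.18) than in intestinal macrophages (9.25 ± 0.27), by 1.93 on the log2 scale. *Sall1* averaged 4.98 ± 0.61 in RPM, 5.08 ± 0.33 in Ly6Chi monocytes and 4.81 ± 0.35 in intestinal macrophages, near the array median in all of them.

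Several of the 15 largest rises were genes that the list of homeostatic genes did not hold. *Tjp1*, the tight junction scaffold ZO-1, read 10.49, 10.45, 10.49, 10.60 and 10.66 in naive microglia, against 4.79 and 5.07 in intestinal macrophages. The naive arrays lay close together and far above the intestinal arrays (adjusted p 1.72e-18), and RPM averaged 9.17 ± 0.22. *Sall3*, a relative of *Sall1*, was higher by 6.16 ± 0.33, and the sialomucin *Cd34* by 4.96 ± 0.20, while Ly6Chi monocytes averaged 8.78 ± 0.09 for *Cd34* and intestinal macrophages 5.95 ± 0.08. *Lrrc3*, a leucine-rich repeat protein, *Gpr165*, an orphan receptor, *Sema4g*, a semaphorin, *Sgce*, a sarcoglycan, *Adamts16*, a secreted metalloprotease, and the gene models *Gm38418* and *Gm5797* were higher by between 4.84 and 5.57. *Jam2*, a junctional adhesion molecule (4.15 ± 0.29), and *Slc1a3*, a glutamate transporter of astrocytes (4.78 ± 0.24), belonged to other lists; the astrocyte markers *Aqp4* (5.39 ± 0.11 in naive microglia, 5.36 ± 0.05 in intestinal macrophages) and *Gja1* (4.38 ± 0.17 in naive microglia, 4.60 ± 0.05 in intestinal macrophages) lay near the array median in both groups, and RPM averaged 8.83 ± 0.16 for *Slc1a3*.

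**Figure D3:**
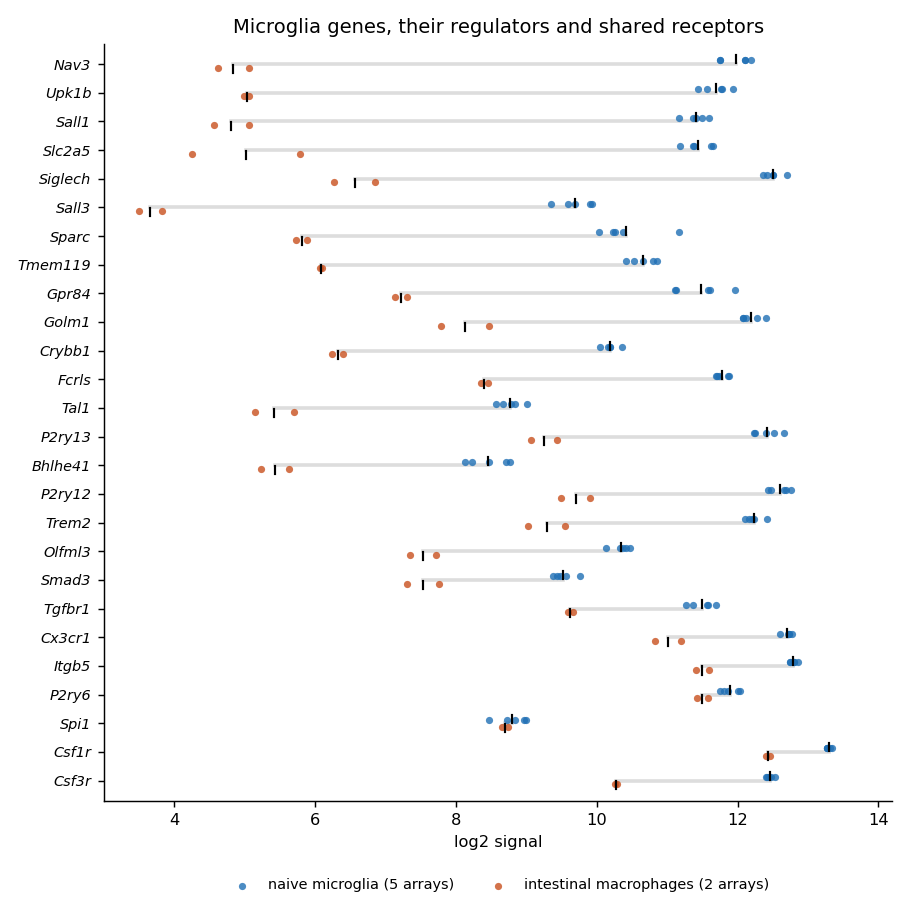
Log2 signal (horizontal axis) of 26 genes in each of the 5 naive arrays (blue, upper row of each gene) and the 2 intestinal arrays (orange, lower row); black bars are group means and grey lines join them. From Nav3 to Smad3 the groups stand clearly apart, at Spi1 they overlap, and Csf1r and P2ry6 are separated by less than 2-fold.

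The transcription factors tied to microglia went both ways. Of 17 measured, 7 were higher, 4 lower and 6 did not pass. Beside *Sall1* and *Sall3*, the higher ones were *Tal1* (3.36 ± 0.20), *Bhlhe41* (3.02 ± 0.23), *Hhex* (2.13 ± 0.14), the TGF-beta effector *Smad3* (2.03 ± 0.23) and *Mef2a* (1.04 ± 0.14, not called without intestinal replicate 2). PU.1 is encoded by *Spi1*, which read 8.99, 8.47, 8.96, 8.72 and 8.84 in naive microglia, against 8.74 and 8.65 in intestinal macrophages, an overlap with a difference of 0.15 (95% interval -0.19 to 0.49). Its partner *Irf8* differed by 0.83 (95% interval 0.18 to 1.48), or by 0.52 without naive replicate 3, which was the highest array, and *Runx1* by 0.05 (95% interval -0.41 to 0.50). The 4 lower factors were *Fos*, *Egr1*, *Atf3* and *Tgif1*. *Fos* read 8.79, 10.29, 8.73, 10.50 and 8.96 in naive microglia, against 11.09 and 11.51 in intestinal macrophages, with naive replicates 2 and 4 well above the other three. Without intestinal replicate 2, *Fos* and *Atf3* were not called, and *Atf3* was not called without intestinal replicate 1 either.

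Factors of other macrophages were, on the contrary, mostly lower in naive microglia: 18 of 25, with *Maf* the single higher one (1.23 ± 0.17, not called without intestinal replicate 1). *Bhlhe40* read 5.46, 5.67, 4.93, 5.48 and 5.52 in naive microglia, against 10.76 and 10.42 in intestinal macrophages, a difference of -5.28 ± 0.26 with an adjusted p of 7.15e-14 in limma. *Irf4*, a factor of antigen-presenting cells, was lower, at -3.64 ± 0.26, *Nfil3* at -3.60 ± 0.23, *Id3* at -3.50 ± 0.25, *Klf4* at -3.13 ± 0.44 and *Tfec* at -3.74 ± 0.29. *Ahr*, the receptor of dietary and microbial aryl compounds, had 7.16 ± 0.19 in naive microglia and 9.31 ± 0.53 in intestinal macrophages (-2.18 ± 0.27). *Runx3* (-2.30 ± 0.21), the vitamin D receptor *Vdr* (-2.48 ± 0.20) and *Hes1*, a target of Notch (-2.08 ± 0.33), followed. *Spic* and *Pparg*, factors of red pulp and alveolar macrophages, were lower in naive microglia too (-1.996 ± 0.32 and -2.90 ± 0.27), but RPM had 11.73 ± 0.01 and 10.33 ± 0.16, above the 6.36 ± 0.32 and 7.46 ± 0.03 of intestinal macrophages. *Gata6*, the factor of peritoneal macrophages, stayed at 4.65 ± 0.15 in naive microglia and 4.61 ± 0.09 in intestinal macrophages.

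Of 24 genes that macrophages share, 2 were higher, 2 lower and 20 did not pass. These counts lie near the shares over all 21666 genes, 6.37% higher and 7.67% lower, and do not set the list apart. After quantile normalization 5 of the 24 were higher and 1 lower. *Csf1r*, the receptor on which both cell types depend for survival, read 13.28, 13.34, 13.32, 13.28 and 13.27 in naive microglia, against 12.41 and 12.46 in intestinal macrophages. Its difference of 0.86 (95% interval 0.63 to 1.09) stayed under 2-fold although the groups did not overlap. For *Tyrobp*, the signalling adaptor of TREM2, the difference was 0.26 (95% interval -0.04 to 0.56), for *Fcer1g* 0.01 (-0.27 to 0.28), for *Cd68*, a lysosomal glycoprotein, 0.27 (-0.06 to 0.60), for *Aif1*, which encodes IBA1, -0.34 (-0.64 to -0.04), and for *Adgre1*, an adhesion receptor that marks mouse macrophages, -0.54 (-0.89 to -0.20). Sort markers of the gates belonged here as well, *Itgam* (CD11b) with 0.73 (0.43 to 1.03) and *Fcgr1* (CD64) with 0.89 (0.56 to 1.21). The large exception was *Cybb*, the catalytic subunit of the phagocyte NADPH oxidase, with 5.51, 6.24, 5.67, 6.28 and 5.86 in naive microglia, against 10.28 and 10.21 in intestinal macrophages. It was lower, at -4.31 ± 0.40 (SE, adjusted p 6.07e-09), with RPM at 9.96 ± 0.06 and Ly6Chi monocytes at 10.33 ± 0.07. *Lyz2*, lysozyme, was lower (-1.10 ± 0.20), and the apoptotic cell receptor *Mertk* (1.81 ± 0.16) and the integrin *Itgb2* (1.36 ± 0.32) were higher; *Itgb2* was not called without naive replicate 3, which left 1 of the 24 higher.

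TGF-beta is a signal that both tissues are known to use. On the side of the receptors and SMAD proteins, 6 of 17 were higher and none lower in naive microglia: *Tgfbr1*, the type I receptor, read 11.70, 11.58, 11.27, 11.37 and 11.57 in naive microglia, against 9.66 and 9.59 in intestinal macrophages, a difference of 1.78 ± 0.14 (adjusted p 4.32e-10), and *Smad3*, *Smad7* (1.61 ± 0.22), *Eng* (1.47 ± 0.23), *Smad1* (1.33 ± 0.21) and *Acvr1* (1.18 ± 0.16) were higher as well. *Tgfbr2*, the type II receptor, differed by 0.91 (95% interval 0.52 to 1.30), *Smad2* by 0.25 (-0.11 to 0.61) and *Smad4* by -0.37 (-0.68 to -0.06). The ligand *Tgfb1* differed by 0.06 (-0.30 to 0.41) and its anchor *Nrros* by -0.004 (-0.46 to 0.45). Of 9 ligands and activators, 2 were lower: *Tgfb3*, with 4.93, 4.83, 4.78, 5.03 and 4.44 in naive microglia, against 7.65 and 7.65 in intestinal macrophages, and *Thbs1*, thrombospondin 1, with 7.47, 7.73, 7.33, 7.73 and 7.36 in naive microglia, against 11.64 and 11.43 in intestinal macrophages. Targets and inhibitors of the pathway, counted as 1 list, went both ways, 3 higher and 3 lower of 9. *Pmepa1* (1.60 ± 0.21) and *Ski* (1.73 ± 0.20) were higher, and *Tgfbi*, TGF-beta-induced protein (-2.41 ± 0.21), and *Klf10* (-1.56 ± 0.26) were lower.

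Antigen presentation through MHC class II divided the populations, in genes whose surface product was part of the intestinal gate. Of 10 class II genes, 7 were lower and none higher in naive microglia. *H2-Aa*, an alpha chain, read 7.66, 8.07, 5.63, 8.71 and 8.08 in naive microglia, against 12.28 and 12.43 in intestinal macrophages. *H2-Ab1*, its beta chain, read 9.87, 10.04, 8.72, 10.68 and 10.38 in naive microglia, against 13.52 and 13.55 in intestinal macrophages, and *H2-Eb1* 8.10, 8.23, 6.16, 9.24 and 8.76 in naive microglia, against 12.53 and 12.47 in intestinal macrophages. Naive replicate 3 was the lowest naive array for all 3 genes, and even the highest naive array, replicate 4, stayed well below both intestinal arrays. *Ciita*, the coactivator that switches class II genes on, read 5.65, 5.09, 5.51, 5.46 and 5.38 in naive microglia, against 10.28 and 10.45 in intestinal macrophages, a difference of -4.92 ± 0.29 (adjusted p 1.26e-12). *H2-Eb2* was lower, at -3.81 ± 0.18, while the peptide-loading genes *H2-DMb2* (-1.89 ± 0.16) and *H2-DMa* (-1.01 ± 0.17) were lower by less, *H2-DMa* not without intestinal replicate 1 or naive replicate 5. *H2-Oa*, which encodes a chain of the inhibitor of peptide loading, read 8.84, 8.87, 9.52, 9.19 and 9.02 in naive microglia, against 9.21 and 9.17 in intestinal macrophages, an overlap with a difference of 0.05 (95% interval -0.51 to 0.61), and *H2-Ob* differed by 0.01 (-0.38 to 0.39). RPM averaged 7.65 ± 0.37 for *Ciita* and 10.68 ± 0.25 for *H2-Aa*, both called lower than in intestinal macrophages.

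Class II genes are known to be switched on by CIITA through an X box and a Y box upstream of the start. The promoters of 4 of them are shown because they hold these letters in windows of 300 bases (250 before and 50 after the start, RefSeq on GRCm38.p6), with an X box searched as AGCAACNG and a Y box as CTGATTGG on both strands and matches in capitals. They are given 5′ to 3′ on the strand of the gene, at chr17:34287774-34288073 (minus strand) for H2-Aa, chr17:34305617-34305916 (plus strand) for H2-Eb1, chr17:34325425-34325724 (plus strand) for H2-Eb2 and chr17:34092129-34092428 (plus strand) for H2-Oa.
H2-Aa: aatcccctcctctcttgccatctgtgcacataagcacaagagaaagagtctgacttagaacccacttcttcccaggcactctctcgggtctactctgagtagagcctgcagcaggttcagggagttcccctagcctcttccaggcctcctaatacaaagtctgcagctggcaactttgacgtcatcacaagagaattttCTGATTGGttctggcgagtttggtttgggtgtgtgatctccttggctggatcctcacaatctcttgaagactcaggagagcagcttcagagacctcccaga
H2-Eb1: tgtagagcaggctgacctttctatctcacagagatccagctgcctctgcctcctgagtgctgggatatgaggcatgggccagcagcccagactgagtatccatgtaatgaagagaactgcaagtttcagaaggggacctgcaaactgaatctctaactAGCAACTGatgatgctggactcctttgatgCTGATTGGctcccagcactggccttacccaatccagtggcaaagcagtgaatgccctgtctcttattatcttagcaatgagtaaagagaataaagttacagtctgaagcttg
H2-Eb2: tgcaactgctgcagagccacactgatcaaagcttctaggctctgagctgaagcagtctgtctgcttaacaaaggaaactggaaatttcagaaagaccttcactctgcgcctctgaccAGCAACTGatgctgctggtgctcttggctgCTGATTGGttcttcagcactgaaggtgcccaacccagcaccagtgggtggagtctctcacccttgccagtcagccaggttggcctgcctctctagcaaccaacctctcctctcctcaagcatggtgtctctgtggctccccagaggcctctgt
H2-Oa: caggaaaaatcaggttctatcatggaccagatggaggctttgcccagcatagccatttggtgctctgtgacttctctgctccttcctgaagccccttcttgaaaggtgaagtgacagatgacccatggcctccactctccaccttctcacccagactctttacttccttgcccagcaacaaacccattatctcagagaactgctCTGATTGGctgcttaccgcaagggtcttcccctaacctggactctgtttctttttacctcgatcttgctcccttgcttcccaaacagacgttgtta
In H2-Eb1 and H2-Eb2 an X box stood 22 bases before a Y box. In H2-Aa and H2-Oa the Y box letters, which begin 51 and 46 bases before the start, were matched and the X box letters were not. A box that differs from the letters searched is not found, so these promoters may still hold an X box. *H2-Oa*, whose arrays overlapped between the groups, thus held the Y box letters too. Of 8 class II genes with a promoter in the table, 4 held the Y box letters and 2 the X box letters, beside 5.28% and 5.57% of the 16680 genes with a promoter. Among genes called higher in naive microglia 5.43% held the Y box letters and 5.71% the X box letters, and among genes called lower 8.08% and 4.93%. The PU.1 letters GAGGAAGT, on either strand, stood in 4.68% of the promoters of genes called higher, 5.33% of those called lower and 3.44% of all. A match is a description of the letters and no evidence of binding.

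Ligands that steer T cells followed the class II genes: 6 of 11 were lower in naive microglia and *Cd276* was higher (1.29 ± 0.36, not called without intestinal replicate 1). *Cd274*, which encodes PD-L1, read 5.81, 6.15, 5.99, 6.61 and 6.02 in naive microglia, against 10.57 and 10.17 in intestinal macrophages. *Pdcd1lg2*, its relative PD-L2 (-4.41 ± 0.21), *Cd40* (-4.10 ± 0.25), *Tnfsf9*, 4-1BB ligand (-3.40 ± 0.27), *Cd83* (-1.66 ± 0.31) and *Cd80* (-1.15 ± 0.23) were lower, whereas *Cd86* differed by -0.13 (95% interval -0.45 to 0.19). MHC class I genes lay closer together, with 5 of 14 lower (3 without intestinal replicate 2), among them the class I coactivator *Nlrc5* (-1.64 ± 0.26) and *H2-K1* (-1.23 ± 0.14); after quantile normalization 1 of the 14 was still lower.

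Genes known from intestinal macrophages were lower in naive microglia in 14 of 19 cases, with a median log2 difference of -3.09. *Il10*, the anti-inflammatory cytokine of the lamina propria, read 4.20, 4.58, 4.52, 4.40 and 4.34 in naive microglia, against 8.46 and 8.08 in intestinal macrophages. *Adamdec1*, a metalloprotease of gut macrophages, read 4.79, 4.56, 4.63, 4.996 and 4.85 in naive microglia, against 11.11 and 11.51 in intestinal macrophages, and RPM reached 11.82 ± 0.05. Mannose receptor *Mrc1* was lower, at -3.80 ± 0.28, the haemoglobin receptor *Cd163* at -3.43 ± 0.26, *Cd4* at -4.17 ± 0.27, the phosphatidylserine receptor *Timd4* at -3.09 ± 0.21, *Itgax* (CD11c) at -3.98 ± 0.30, the nuclease *Dnase1l3* at -6.23 ± 0.19 and the acid phosphatase *Acp5* at -5.94 ± 0.22. *Cd163* stood at 10.75 ± 0.18 in RPM, above its 8.39 ± 0.54 in intestinal macrophages, and so did *Timd4* (9.91 ± 0.04 in RPM, 7.66 ± 0.31 in intestinal macrophages). *Cd9*, a tetraspanin, was the single higher member (1.56 ± 0.21), and *Hpgds*, prostaglandin D synthase, differed by 0.89 (95% interval 0.51 to 1.26).

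**Figure D4:**
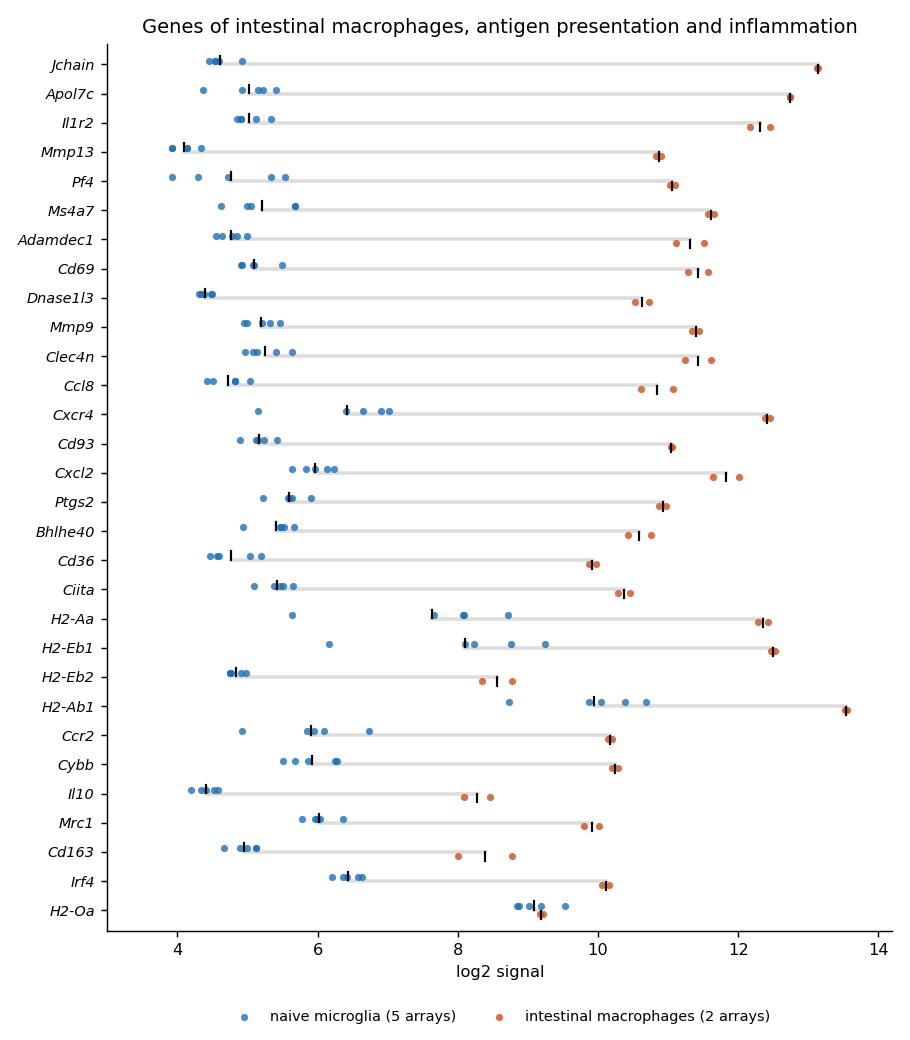
Log2 signal (horizontal axis) of 30 genes in each of the 5 naive arrays (blue, upper row of each gene) and the 2 intestinal arrays (orange, lower row); black bars are group means and grey lines join them. From Jchain to Irf4 the groups stand apart, naive replicate 3 is the lowest point for H2-Aa, H2-Eb1 and H2-Ab1, and at H2-Oa the groups overlap.

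Proteases and receptors of the tissue matrix showed some of the largest differences. *Mmp13*, collagenase 3, read 4.14, 3.93, 4.14, 4.34 and 3.93 in naive microglia, against 10.83 and 10.90 in intestinal macrophages, a difference of -6.73 ± 0.23 (adjusted p 7.81e-17). *Mmp9*, a gelatinase (-6.22 ± 0.69), *Mmp12*, macrophage elastase (-4.59 ± 0.21), *Plaur*, the urokinase receptor (-3.72 ± 0.23), and *Adam19* (-3.43 ± 0.23) were among the 10 of 20 matrix genes lower in naive microglia, and *Adamts1* (2.68 ± 0.57), *Timp2*, a protease inhibitor (2.57 ± 0.17), and *Adam10* (1.18 ± 0.19) were the 3 higher. The hyaluronan receptor *Cd44* (-5.70 ± 0.29) and the integrins *Itga4* (-5.08 ± 0.44), *Itgal* (-4.04 ± 0.41) and *Itgb7* (-3.75 ± 0.17) were lower. Integrin subunits *Itgb5* (1.28 ± 0.13), *Itgb3* (2.24 ± 0.27) and *Itga6* (1.17 ± 0.14) were higher, which made 5 higher and 7 lower of 28 adhesion genes. *Ctse*, cathepsin E, was lower (-4.72 ± 0.39), while the lysosomal cathepsins *Ctsd* (2.22 ± 0.13) and *Ctsf* (2.77 ± 0.26) and the inhibitor *Cst3* (1.71 ± 0.15) were higher, and *Ctsb* differed by -0.003 (95% interval -0.25 to 0.24).

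Uptake receptors divided by family. C-type lectins were lower in 14 of 22 cases: *Clec4n*, which encodes dectin-2, read 5.13, 5.41, 5.08, 5.64 and 4.96 in naive microglia, against 11.24 and 11.61 in intestinal macrophages, and *Clec7a* (dectin-1, -3.76 ± 0.24), *Clec10a* (-4.79 ± 0.27), *Mgl2* (-4.74 ± 0.28) and *Clec12a* (-3.97 ± 0.54) were lower. *Clec5a* alone was higher (1.14 ± 0.21), and not called without intestinal replicate 1. *Cd69*, an activation marker counted with the lectins, was lower, at -6.40 ± 0.25. Scavenger receptors *Cd36* (-5.23 ± 0.28) and *Msr1* (-5.21 ± 0.34) and the apoptotic cell receptor *Axl* (-2.73 ± 0.23) were lower, while *Pros1*, a ligand of AXL and MERTK, read 10.47, 10.46, 10.52, 10.64 and 10.53 in naive microglia, against 7.47 and 8.19 in intestinal macrophages and was higher by 2.73 ± 0.22. The list as a whole had 8 lower and 4 higher of 26. Of the 12 Ms4a genes, a cluster of tetraspan proteins, 7 were lower, with *Ms4a7* at 5.04, 5.68, 4.63, 5.67 and 4.997 in naive microglia, against 11.57 and 11.66 in intestinal macrophages, *Ms4a4a* at -5.98 ± 0.41 and *Ms4a14* at -5.67 ± 0.57; the B cell gene *Ms4a1* (-3.06 ± 0.22) is 1 of them. *Siglec1*, sialoadhesin, was lower (-4.40 ± 0.39) and *Fcgr4* too (-1.53 ± 0.25).

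Most chemokine ligands and receptors measured were lower in naive microglia. Of 21 ligands, 14 were lower and none higher in naive microglia. *Cxcl2*, which draws neutrophils, read 5.96, 6.13, 5.64, 5.83 and 6.23 in naive microglia, against 12.01 and 11.64 in intestinal macrophages, and *Ccl8* 4.51, 4.82, 5.03, 4.42 and 4.82 in naive microglia, against 10.61 and 11.07 in intestinal macrophages. *Pf4* (-6.55 ± 0.47), *Ccl7* (-4.33 ± 0.43), *Cxcl9* (-4.40 ± 0.30), *Cxcl16* (-2.37 ± 0.23) and *Ccl2* (-1.65 ± 0.45, not called without intestinal replicate 1) were lower as well. *Ccl3* (95% interval -1.35 to 0.41), *Ccl4* (-0.82 to 0.76) and *Ccl12* (-1.07 to 0.71) did not pass; *Ccl3* had 11.22 ± 0.34 in naive microglia, 11.78 ± 0.17 in intestinal macrophages and 6.01 ± 0.65 in RPM. On the receptor side, 8 of 13 were lower and *Cx3cr1* was higher: *Cxcr4*, the receptor for CXCL12, read 6.40, 6.65, 5.15, 6.90 and 7.02 in naive microglia, against 12.45 and 12.38 in intestinal macrophages, *Ccr1* was lower, at -4.67 ± 0.29 and *Ccr7* at -3.03 ± 0.29.

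*Ccr2*, the receptor by which monocytes leave the bone marrow, read 5.85, 5.95, 4.92, 6.74 and 6.10 in naive microglia, against 10.19 and 10.14 in intestinal macrophages, with Ly6Chi monocytes at 11.16 ± 0.06. Other monocyte genes moved with it. Of 9 markers of Ly6Chi monocytes, 7 were lower in naive microglia, and the list averaged 5.18 to 5.63 in naive microglia, against 8.46 and 8.42 in intestinal macrophages and 11.8 in Ly6Chi monocytes themselves. *Ly6c2* had 5.72 ± 0.17 in naive microglia, 10.52 ± 0.46 in intestinal macrophages and 12.76 ± 0.05 in Ly6Chi monocytes. *Plac8* differed by -4.29 ± 0.53 and *Fn1*, fibronectin, at -3.14 ± 0.58, while *Vcan*, versican, stayed at 4.53 ± 0.21 in naive microglia and 4.68 ± 0.04 in intestinal macrophages. *Cd93*, a receptor counted with those of complement, was lower too (-5.96 ± 0.40). Markers of the macrophages at the borders of the brain, several of which intestinal macrophages also make, were lower in 4 of 7 cases. Conventional dendritic cell markers were lower in 4 of 8 cases, with *Flt3* at 5.38 ± 0.20 in naive microglia and 7.87 ± 0.32 in intestinal macrophages, but *Zbtb46*, their defining factor, at 4.71 ± 0.15 in naive microglia and 4.32 ± 0.27 in intestinal macrophages.

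Cytokine genes were more mixed. *Il1r2*, the decoy receptor for interleukin-1, read 4.91, 5.12, 4.85, 5.34 and 4.91 in naive microglia, against 12.46 and 12.17 in intestinal macrophages, a difference of -7.28 ± 0.52 (adjusted p 5.61e-11), and its ligand *Il1b* read 8.27, 7.61, 6.92, 7.80 and 8.33 in naive microglia, against 12.08 and 11.97 in intestinal macrophages. *Il1rn*, the receptor antagonist (-3.69 ± 0.23), *Vegfa* (-3.73 ± 0.23), *Il22ra2*, the decoy receptor of interleukin-22 (-3.39 ± 0.31), *Bmp2* (-3.07 ± 0.31), *Hgf* (-2.99 ± 0.24) and *Igf1* (-2.36 ± 0.23) were lower, so that 10 of 25 cytokines and growth factors were lower and 4 higher. The higher ones were *Pdgfb*, with 9.99, 9.92, 10.47, 10.15 and 10.32 in naive microglia, against 8.11 and 8.05 in intestinal macrophages, *Csf1*, the growth factor of macrophages (2.21 ± 0.29), *Il6* (1.62 ± 0.41, with naive replicate 3 nearest to the intestinal arrays, and not called without intestinal replicate 2) and *Il1a* (1.32 ± 0.23). *Tnf* was lower, at -1.15 ± 0.41 with an adjusted p of 0.0381 in limma, and was not called without either intestinal array or without naive replicate 1, 3 or 5.

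Receptors for cytokines leaned the other way. Of 25, 5 were higher and 2 lower in naive microglia: *Csf3r*, the receptor for granulocyte colony-stimulating factor, read 12.41, 12.42, 12.47, 12.45 and 12.53 in naive microglia, against 10.29 and 10.27 in intestinal macrophages, and *Il21r* (1.51 ± 0.18), *Il17ra* (1.48 ± 0.22), *Il6st* (1.18 ± 0.19) and *Ifngr1* (1.10 ± 0.20) were higher. The interleukin-10 receptor chain *Il10ra* differed by 0.92 (95% interval 0.63 to 1.22) and *Csf2ra* was lower, at -1.03 ± 0.26, but not called without intestinal replicate 1 or naive replicate 4 or 5. Of 10 neutrophil markers, *Csf3r* was the single one called. After quantile normalization 10 of the 25 receptors were higher and 1 lower.

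Interferon-stimulated genes were lower in naive microglia in 16 of 23 cases and higher in none, with a median log2 difference of -1.68. *Isg15*, a ubiquitin-like modifier, read 7.08, 7.21, 7.33, 7.17 and 7.20 in naive microglia, against 9.97 and 9.995 in intestinal macrophages, and *Oas2* 6.78, 7.13, 7.60, 7.07 and 6.35 in naive microglia, against 9.92 and 9.52 in intestinal macrophages. *Zbp1* (-3.14 ± 0.45), *Oasl1* (-3.15 ± 0.32), *Irf7* (-2.53 ± 0.27) and *Rsad2*, viperin (-2.63 ± 0.25), were lower, whereas *Mx2* and *Ifit3* differed by 0.47 and 0.47 without passing. RPM averaged 10.04 ± 0.26 for *Isg15* and 11.28 ± 0.07 for *Irf7*. The receptor genes *Ifnar1* and *Ifnar2* differed by -0.70 (95% interval -1.05 to -0.34) and 0.54 (0.20 to 0.87).

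Cell cycle genes were lower in 20 of 24 cases and higher in none. *Mki67*, a marker of dividing cells, read 6.76, 6.59, 7.87, 6.15 and 7.16 in naive microglia, against 10.40 and 10.60 in intestinal macrophages, and Ly6Chi monocytes had 12.03 ± 0.23. *Birc5* read 4.67, 4.75, 4.71, 4.32 and 4.61 in naive microglia, against 7.18 and 8.22 in intestinal macrophages, *Cdk1* was lower, at -2.35 ± 0.25 and *Mcm5*, a replication licensing protein, at -1.53 ± 0.30. Naive replicate 3 was the highest naive array for *Mki67* and still well below both intestinal arrays.

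Immediate-early genes, which respond quickly to stimulation and to tissue digestion, were lower in 13 of 23 cases, in cells whose tissues were digested differently. *Nr4a2* read 4.96, 5.10, 5.10, 4.76 and 4.97 in naive microglia, against 10.12 and 9.54 in intestinal macrophages, and *Fosb* 8.77, 9.94, 8.15, 10.64 and 8.89 in naive microglia, against 12.94 and 13.05 in intestinal macrophages. The spread between naive arrays was wide for *Fosb*, with replicates 2 and 4 the highest, and narrow for *Nr4a2*. *Dusp2* (-4.10 ± 0.27), *Nr4a3* (-3.81 ± 0.21), *Dusp1* (-2.25 ± 0.41) and *Ier2* (-2.35 ± 0.39) were lower, while *Jun* differed by -0.16 (95% interval -0.84 to 0.52) and *Zfp36* by -0.38 (-0.72 to -0.04). The heat shock gene *Hspa1b* was higher by 2.02 ± 0.52, with 11.17, 11.39, 9.30, 11.54 and 11.07 in naive microglia, against 8.97 and 8.27 in intestinal macrophages; naive replicate 3 lay close to the intestinal arrays. *Hspa1a*, its near-identical neighbour, was higher by 1.37 ± 0.33, and the 2 cannot be told apart with certainty. Neither was called without intestinal replicate 2. RPM averaged 8.92 ± 0.28 for *Jun* and Ly6Chi monocytes 9.98 ± 0.68.

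Sensing and complement genes gave smaller groups. Of 24 pattern recognition receptors, 6 were higher and 3 lower: *Tlr8*, an endosomal RNA sensor, was lower, with 4.87, 5.14, 4.25, 5.08 and 4.65 in naive microglia, against 9.60 and 9.68 in intestinal macrophages, while *Cd180* (1.74 ± 0.26), *Tlr3*, a sensor of double-stranded RNA (1.05 ± 0.20, not called without intestinal replicate 1 or naive replicate 3), *Tlr7* (1.25 ± 0.17) and *Tlr4*, the receptor for lipopolysaccharide (1.11 ± 0.20, not called without intestinal replicate 1), were higher. Of 15 genes of Toll-like receptor signalling and its inhibitors, 6 were lower, among them *Tnfaip3* (-2.31 ± 0.24), *Nfkbiz* (-2.49 ± 0.26), *Irak3* (-1.61 ± 0.20) and *Nfkbia* (-1.27 ± 0.17). The C1q chains, in which both cell types are rich, differed by 0.18 for *C1qa* (95% interval -0.32 to 0.68), 0.49 for *C1qb* (0.07 to 0.90) and 0.73 for *C1qc* (0.33 to 1.14), whereas *Cfb*, factor B of the alternative pathway, read 5.23, 5.05, 5.58, 4.72 and 5.53 in naive microglia, against 9.59 and 9.99 in intestinal macrophages, and properdin, *Cfp*, was lower, at -4.34 ± 0.27. In all, 5 of 12 complement components were lower and none higher.

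Metabolic and signalling lipids formed the last groups. *Ptgs2*, the inducible cyclooxygenase, read 5.59, 5.64, 5.23, 5.57 and 5.91 in naive microglia, against 10.97 and 10.87 in intestinal macrophages, and the prostaglandin E2 receptor *Ptger4* was lower, at -4.17 ± 0.34. Of the leukotriene genes, *Ltc4s* (1.91 ± 0.26) and *Alox5ap* (1.57 ± 0.33) were higher, while some others did not pass. The eicosanoid list held 5 higher and 3 lower of 19. Of 19 lipid handling genes, 8 were lower and 3 higher: the lipid transfer protein *Pltp* (-5.42 ± 0.32), the fatty acid carrier *Fabp5* (-5.17 ± 0.33), the droplet protein *Plin2* (-3.23 ± 0.23) and *Apoe* (-1.48 ± 0.28) were lower, and *Mylip*, which degrades the LDL receptor (1.90 ± 0.14), and the exporter *Abcg1* (1.35 ± 0.26) were higher. The retinoic acid enzyme *Aldh1a2* was lower, with 4.85, 4.64, 5.05, 4.72 and 4.80 in naive microglia, against 6.20 and 7.98 in intestinal macrophages, and the intestinal arrays lay far from each other. Of 17 glycolysis genes, 3 were higher, *Slc2a5* among them, and 2 lower, with *Pfkp*, a phosphofructokinase, at -4.58 ± 0.22, while *Gapdh* differed by -0.08 (95% interval -0.39 to 0.22). The iron exporter *Slc40a1* was higher by 1.93 ± 0.38, with intestinal arrays at 7.24 and 8.71, and was not called without intestinal replicate 1. Of the purinergic receptors other than those of the homeostatic list, *P2ry10* (-4.999 ± 0.25) and *P2ry14*, the UDP-glucose receptor (-4.59 ± 0.25), were lower and *Adora3*, an adenosine receptor (1.79 ± 0.24), was higher. Among guidance genes, *Plxnd1* (-3.33 ± 0.32) and *Sema7a* (-2.85 ± 0.21) were lower and *Sema4c* (2.42 ± 0.22) and *Plxnb2* (2.19 ± 0.14) higher.

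**Figure D5:**
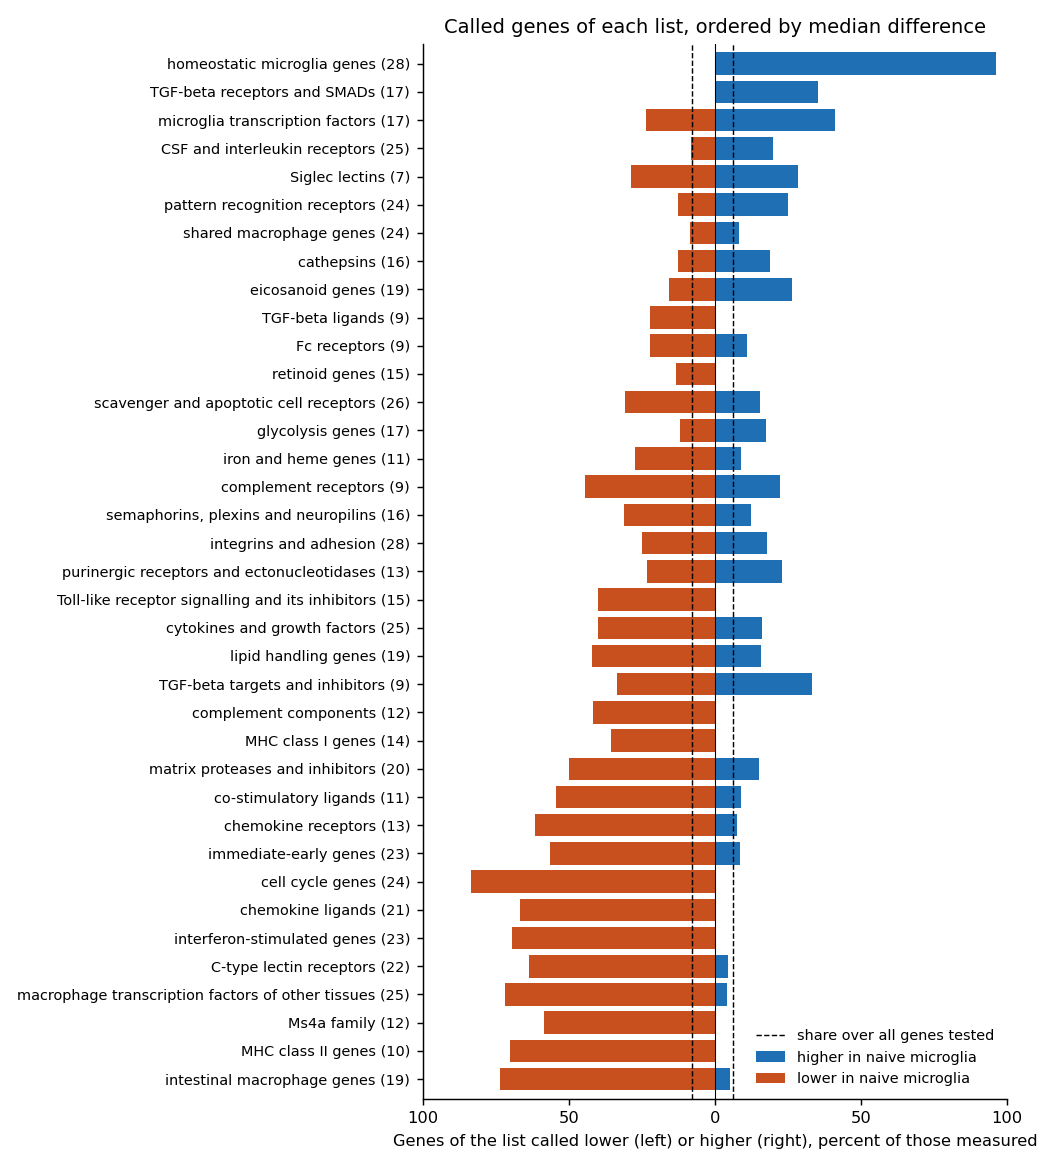
Percent of the measured genes of each list (number in brackets) called lower (orange, to the left) or higher (blue, to the right) in naive microglia, ordered by the median log2 difference; dashed lines give the shares over all genes, 7.67% lower and 6.37% higher. Homeostatic microglia genes stand at the top with 27 of 28 higher, and intestinal macrophage genes at the bottom with 14 of 19 lower.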

How the data were processed

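RNA of sorted cells was hybridised to Affymetrix Mouse Gene 2.1 ST arrays, and the values deposited by the authors are log2 signals per transcript cluster. Partek is named in the submitters' processing notes without a version; the background correction and normalization are not given in the sources used here. In the naive arrays, the batch 2 minus batch 1 difference of each transcript equalled that of the monocytes within 0.000133, so batches had been adjusted before the values were deposited. Of 41345 transcripts, 2145 without values and 6955 listed at 0 were left out and 32245 tested; 22761 carried 1 gene symbol, 1683 several and 7801 none. A gene was represented by its transcript of highest mean, which mattered for 878 genes. For some list members another transcript had a different call, either lower where the gene was not called or not called where the gene was. R 4.3.3 with limma 3.58.1 (lmFit and eBayes) was used on all 27 arrays in 9 groups with a batch term, with Benjamini-Hochberg adjustment over all transcripts, and the steps were tested on simulated data. An intensity array gives no count of molecules, and the number of arrays limits the precision. The genes named are the 15 largest changes in each direction, members of lists and genes singled out after their values were seen. The members and lists were chosen with earlier results of these data known. Of 775 list members, 714 were measured with a symbol of their own, and the rest were not analysed here. Alternatives were other normalizations, filters, models, thresholds and sets of arrays; leaving out the antibody transcripts, or transcripts over 4-fold apart between the intestinal arrays, was chosen after seeing the data. Promoter sequences are from RefSeq (GRCm38.p6).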

Additional observations from a re-analysis of the deposited data

Results flagged for a closer look

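In 14 of the 270 genes named, 1 of the 5 naive arrays lay far from the other four by Dixon's test, which chance alone gives in about 1 of 20 groups. In 11 of them it was replicate 3. It was the highest naive array for *Irf8* (10.69, the others 9.35 to 9.46), *Itgb2* (11.02, the others 9.37 to 9.66), *Irf7* (8.59, the others 7.34 to 7.70), *Itgax* (8.01, the others 7.29 to 7.48), *Itgam* (12.98, the others 12.58 to 12.63), *Slc1a3* (9.25, the others 8.87 to 8.98), *Plxnb2* (12.40, the others 12.09 to 12.13) and *Fcgr1* (12.18, the others 11.89 to 11.93). It was the lowest for *Hspa1b* (9.30, the others 11.07 to 11.54), *Hspa1a* (8.34, the others 9.09 to 9.33) and *Bhlhe40* (4.93, the others 5.46 to 5.67). Replicate 4 was the highest for *Mef2a* (12.63, the others 12.51 to 12.54) and the lowest for *Pdcd1lg2* (4.41, the others 4.62 to 4.69), and replicate 1 the lowest for *Ctsd* (12.59, the others 12.69 to 12.71). *Itgam* and *Fcgr1* encode sort markers. Of these genes, *Itgb2* lost its call without replicate 3.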

How the results depend on the processing

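Apart from the stricter threshold, the number of transcripts called stayed within 1.5 times the reported 1919 higher and 2287 lower under every alternative run. Where 4-fold and an adjusted p of 0.01 were asked for instead, 445 were higher and 903 lower. Quantile normalization gave 2054 higher and 2088 lower, a share of 49.6% higher beside 45.6%; under it *Csf1r*, *Fcgr1*, *Itgam*, *C1qc*, *Hpgds*, *Il10ra* and *Tgfbr2* passed as higher, and *Lyz2*, *H2-K1*, *H2-DMa*, *Cd80*, *Atf3*, *Tgif1*, *Nfkbia*, *Csf2ra*, *Ighm* and *Tnf* no longer passed. Leaving out 1 array at a time gave 1877 to 2071 higher and 2250 to 2443 lower. With arrays of batch 2 only, 1846 were higher and 2232 lower. The log2 differences of 4 genes that were high in intestinal replicate 1 changed sign without it and were larger in size without replicate 2: *Tff2* gave 0.369 without replicate 1 and -7.887 without replicate 2, *Gkn3* 0.071 and -7.091, *Muc6* 0.288 and -6.098, and *Agr2* 0.035 and -4.462. In all, 43 of the 270 genes named changed their call in some setting other than the stricter threshold; the cause was not tested. Whether the replicate numbers pair the samples could not be decided from the values. Naive replicates 1 and 2 were run in batch 1, and intestinal replicates 1 and 2 in batch 2. The deviations of naive and intestinal arrays sharing number 1 or 2 correlated at 0.0055, and those of unlike numbers at -0.0055. Each deviation was taken within a pair of arrays, whose deviations mirror each other, so that these values are a single number. A fit with the replicate number as a block called 2561 higher and 2474 lower. Leaving out the antibody transcripts gave 1919 higher and 2260 lower, and leaving out those over 4-fold apart between the intestinal arrays 1917 and 2248, both chosen after seeing the data. The 2 intestinal arrays limit the precision of their mean, and signals near the array median limit the folds.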
